A study of Caenorhabditis elegans with 4 samples.

Results

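The *abu* and *pqn* genes of *C. elegans* were measured on Affymetrix GeneChips in adults of 2 genotypes, wild type and *kgb-1(km21)*, with and without copper. The group holds the probe sets whose gene symbols, in the gene table of the array, all begin with *abu-* or *pqn-*, and whose signal reached 100 on at least 1 of the 4 arrays. Of 102 such probe sets on the array, for 69 genes, 56 reached that signal, for 45 genes. The array holds 22548 probe sets for worm transcripts, of which 11266 reached it. The 56 comprise 10 probe sets for *abu* genes alone, 43 for *pqn* genes alone and 3 that *abu* and *pqn* genes share. The animals were N2 Bristol wild type and *kgb-1(km21)* mutants in the same background, both fed OP50 bacteria at 20 °C and collected as adults 1 day old. Each genotype was kept in water, or in 1 mM copper sulfate, for 1 h at room temperature, and the total RNA of whole animals was hybridized to 1 array per condition. The samples labelled as untreated here are therefore animals in water. *kgb-1* encodes a MAP kinase of the JNK type that the study placed in the response to heavy metals.

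*abu* stands for activated in blocked unfolded protein response. These genes were named because ER stress raises their transcripts in animals that lack the XBP-1 branch of that response, and their proteins resemble the extracellular part of CED-1, a receptor for dying cells. Several of them, such as *abu-14*, are expressed in the pharynx, and their cysteine-rich proteins are thought to be part of the cuticle that lines it. *pqn* stands for a prion-like domain rich in glutamine and asparagine. This is a name for a sequence feature, not for a function, and *pqn* genes include secreted proteins close to the ABU proteins as well as proteins of the nucleus and the cytoplasm.

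The deposited values are MAS5 signal intensities on a linear scale, scaled by the authors to a common trimmed mean. A given array showed 45 to 54 of the 56 probe sets at 100 or more, and 39 were at or above it on all 4. The lowest of these members by their highest signal were *abu-10* at 100.3, the probe set of *abu-5* and 5 *pqn* genes at 105, and *abu-12* at 109.6, and just below were *abu-11* at 99.3, *pqn-72* at 99.3 and *pqn-89* at 98.4. Signals of different probe sets do not rank the amounts of their RNAs, so each probe set is compared only with itself. The log2 ratios of 18 hybridization controls had an SD of 0.18 to 0.22 between arrays, which is the only technical spread at hand. The probe set of *kgb-1* itself read 129 and 314 on the wild-type arrays, in water and copper, and 179.5 and 229 on the mutant arrays. Whether its probes lie in the deleted part was not tested, so they do not check the genotype. With 1 array per condition, a ratio within 1 genotype carries no error.

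At 8 of the 10 *abu* probe sets both wild-type signals were above both *kgb-1* signals, against 16.7% of all tested probe sets. Of the 10, 4 reached 100 on wild-type arrays only, so this comparison is no test. At 9 of the 10 the mutant signal was below the wild-type signal without copper and with it, *abu-12* being the exception. The same held for 3091 of all 11266 tested probe sets. Over the 10 *abu* probe sets, the median ratio was 1.85-fold lower without and 1.98-fold lower with copper, although no single probe set passed the test. *abu-14*, on a probe set that carries no suffix for shared sequences, gave 306 and 339 on the wild-type arrays and 171 and 182 on the mutant arrays, where the first value of each pair is without and the second with copper. A further probe set of *abu-14* gave 219 and 359 on the wild-type arrays and 169 and 142 on the mutant arrays. On both probe sets the wild-type and mutant signals did not overlap, and all 8 signals were above 100. The ratio of mutant to wild type was 0.56 without and 0.536 with copper on the first and 0.773 and 0.396 on the other. In RNA of whole animals, fewer cells of a type and less RNA per cell cannot be told apart.

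Of the other *abu* genes, *abu-15*, *abu-6*, *abu-7* and *abu-8* lie close together on chromosome V of assembly WBcel235. *abu-15* gave 224 and 250.0 on the wild-type arrays and 103 and 124 on the mutant arrays, that is 2.17-fold and 2.01-fold lower in the mutants. *abu-6* gave 168 and 192 on the wild-type arrays and 87.3 and 68.9 on the mutant arrays. As both mutant signals of *abu-6* are below 100, its difference is at least 1.68-fold without and at least 1.92-fold with copper, taking 100 for the dimmer signal. The probe set that *abu-7* and *abu-8* share gave 163 and 189 on the wild-type arrays and 109 and 62.7 on the mutant arrays. The wild-type signals of these 3 probe sets were thus above 150 on both arrays, and the mutant signals below 130 on both. *abu-8* has 2 further probe sets of its own. The first gave 166 and 164 on the wild-type arrays and 81.8 and 108 on the mutant arrays, and the other 149.9 and 143 on the wild-type arrays and 23.1 and 62.0 on the mutant arrays. In both, the wild-type arrays were close to each other and above the mutant arrays, while the mutant signals lay farther apart. Against 100 for the dimmer signal, the first is at least 1.66-fold lower in the mutants without copper, and the other at least 1.43-fold lower with copper. All 5 of these probe sets carry the suffix _x_at, which marks probes that also match other sequences, so they may in part measure the same RNA and are not 5 separate observations.

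From *abu-15* to *abu-8* the annotation holds 10 protein-coding genes in a row, 4 of them *abu* genes. The 6 others, among them the chemoreceptor genes *srw-140*, *srt-64* and *srt-65*, all have a probe set, and 5 of them did not reach 100 on any array. The exception, *ugt-51*, a gene for a UDP-glucuronosyltransferase, gave 291 and 338 on the wild-type arrays and 394 and 542 on the mutant arrays, and it did not pass the limma test for genotype (adjusted p = 0.222). Its mutant signals were above its wild-type signals, opposite to the order at the *abu* probe sets on both sides of it.

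*abu-13*, on chromosome III, gave 101 and 142 on the wild-type arrays and 44.0 and 72.2 on the mutant arrays. Only the wild-type signals of *abu-13* reached 100. The difference with copper is therefore at least 1.42-fold, and without copper no bound above 1.01 can be given. *abu-10*, on chromosome X, gave 59.0 and 100.3 on the wild-type arrays and 47.9 and 59.9 on the mutant arrays, so that only 1 of its signals reached the minimum and the genotypes overlapped. *abu-12*, also on chromosome X, was the exception in direction, with 78.0 and 87.2 on the wild-type arrays and 95.8 and 109.6 on the mutant arrays. Its mutant signals were above both wild-type signals, with 1 of the 4 over 100.

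**Figure D1:**
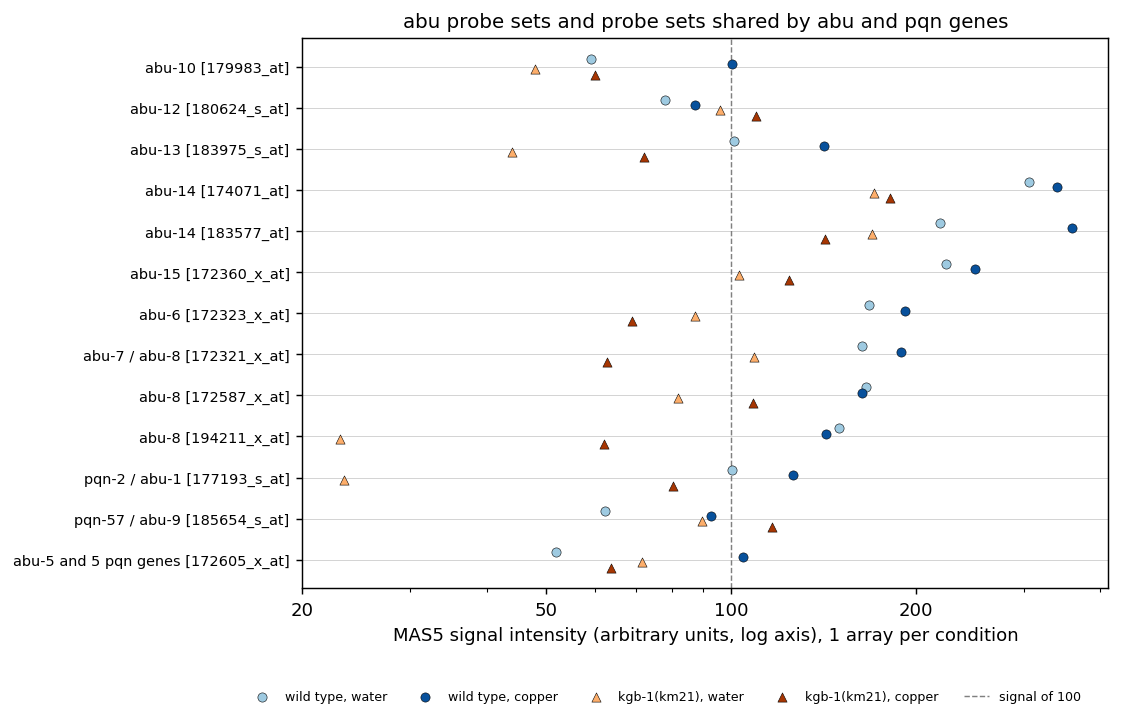
Signal intensity (arbitrary units, log axis) of the 10 *abu* probe sets and the 3 that *abu* and *pqn* genes share, 1 point per array, with circles for wild-type animals and triangles for *kgb-1(km21)* mutants and the darker shade for copper. Both circles lie to the right of both triangles at 8 of the 10 *abu* probe sets, *abu-12* runs the other way, and the signals of *abu-10* overlap.

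The genotypes were compared with limma on log2 signal with genotype and copper as factors, and p-values were adjusted over all 11266 probe sets that reached 100. No member passed at an adjusted p under 0.05, against 0.284% of all tested probe sets lower and 0.0533% higher in the mutants. At an unadjusted p under 0.05, 14 of the 56 members were lower in the mutants and 1 was higher, against 5.25% and 5.52% of all tested probe sets. Of these 14, 8 were *abu* probe sets, 5 were *pqn* probe sets and 1 was the probe set of *pqn-2* and *abu-1*. The probe sets of *abu-6*, *abu-13*, *pqn-2* with *abu-1*, and 1 of *abu-8* reached 100 on wild-type arrays only and so had to be brighter there. Those with the suffix _x_at may in part measure the same RNA. The share of members is therefore no test of the group. The smallest adjusted p among members was that of *abu-14* on the first probe set (log2 difference -0.87 ± 0.15 (SE), adjusted p = 0.112). *abu-15* was next (log2 difference -1.06 ± 0.19 (SE), adjusted p = 0.115), followed by *abu-6* (log2 difference -1.21 ± 0.26 (SE), adjusted p = 0.173). The estimates of the other *abu* probe sets with an unadjusted p under 0.05 ran from -1.95 for *abu-8* to -0.81 for its other probe set, with adjusted p between 0.214 and 0.312. Dim mutant signals enter several of these estimates. With signals below 100 raised to 100, the one of -1.95 became -0.55, that of *abu-6* -0.85 and that of *abu-13* -0.26. Those of *abu-14* and *abu-15*, with all signals above 100, did not change. With each array scaled to the same median, *abu-14* and *abu-15* passed (adjusted p = 0.0272 and 0.0290 from limma), as did 0.994% of all tested probe sets in that direction, against 0.284% without this scaling, while over all alternatives their adjusted p ran from 0.0272 to 0.800 and from 0.0290 to 0.803.

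The median log2 ratio of mutant to wild type over the 10 *abu* probe sets was -0.89 without copper and -0.99 with copper, beside 0.01 and 0.00 over all tested probe sets. Among tested probe sets with a mean signal in the same range, from 66.8 to 249, 16.2% had both wild-type signals above both mutant signals. A ratio under 0.5, with the brighter signal at least 100, was found at 4 of 8 *abu* probe sets without copper and 5 of 10 with copper, against 0.934% and 1.44% of all probe sets. It was found in both comparisons at 2 members, against 0.621%. One was *abu-15*, with all 4 signals above 100, and the other was an *abu-8* probe set whose mutant signals were both below 100, so that its fold is only bounded as given above. With every signal below 100 raised to 100, 1 member without and 3 with copper had a ratio under 0.5. No member had a ratio over 2 in either comparison, against 0.601% without and 1.19% with copper. These shares describe the probe sets and are no test, because 4 of the 10 reached 100 on wild-type arrays only and so had to be brighter there. Over all 17 *abu* probe sets on the array, with no signal minimum, the medians were -0.58 without and -0.81 with copper, and both wild-type signals were above both mutant signals at 10. The 7 added probe sets had no signal of 100, and the share of all probe sets with this order was not counted without a minimum. With the raised signals, the medians of the 10 were -0.58 and -0.75.

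Other measurements moved between the genotypes as well, and their part in the *abu* values was not tested. The catalase control, whose 3′ probe set is read against its 5′ probe set as a sign of RNA integrity, gave a ratio of 4.61 and 4.62 on the wild-type arrays and 3.63 and 2.90 on the mutant arrays. The same ratio for the Gapdh control was 1.01 and 0.91 on the wild-type arrays and 0.94 and 1.08 on the mutant arrays, where the genotypes overlapped. For the actin control it was 1.85 and 1.76 on the wild-type arrays and 1.70 and 1.74 on the mutant arrays, a far smaller gap. Among 13 probe sets of genes for molting, none passed the test and 8 had both mutant signals above both wild-type signals, against 18.9% of all tested probe sets, with a summed signal of 4360.4 and 4025 on the wild-type arrays against 5126 and 6166 on the mutant arrays. *noah-1* and *noah-2* encode proteins of the apical matrix. *noah-2* gave 408 and 443 on the wild-type arrays and 594 and 807 on the mutant arrays (adjusted p = 0.141 from limma). *noah-1* gave 1563 and 1532 on the wild-type arrays and 1919 and 2114 on the mutant arrays on 1 probe set and 458 and 429 on the wild-type arrays and 576 and 800.1 on the mutant arrays on another (adjusted p = 0.282 and 0.263 from limma). The order at these probe sets was opposite to that at the 8 *abu* probe sets. Not all molting genes had it, and *bli-2*, a cuticle collagen gene, gave 28.5 and 151 on the wild-type arrays and 12.4 and 68.6 on the mutant arrays, lower in the mutants in both comparisons. All 3 tested sperm markers, *msp-19*, *msp-3* and *gsp-4*, had both wild-type signals above both mutant signals, against 16.7% of all tested probe sets, with a summed signal of 5475 and 5154 in wild-type animals against 4135 and 3950.0 in the mutants. Any difference in how the 2 strains were grown cannot be told apart from genotype here.

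Markers of the pharynx were read beside the *abu* genes, because several of these are expressed there. Of 7 probe sets for genes of the pharyngeal muscle and their regulator *pha-4*, none had both wild-type signals above both mutant signals, and none passed the test. *tnt-4*, a troponin gene, gave 234 and 577 on the wild-type arrays and 457 and 477 on the mutant arrays (adjusted p = 0.708 from limma). The myosin gene *myo-1* gave 1065 and 684 on the wild-type arrays and 1179 and 889.5 on the mutant arrays, and *tni-4*, a gene for troponin I, gave 526 and 525 on the wild-type arrays and 738 and 518 on the mutant arrays (adjusted p = 0.502 and 0.645 from limma). Of 10 probe sets for other genes of the pharyngeal gland and cuticle, none passed, and 3 had both wild-type signals above both mutant signals while 2 had the reverse order, against 16.7% and 18.9%. The *phat* genes are named for the pharyngeal gland. *phat-4*, one of the 3, gave 198 and 238 on the wild-type arrays and 163 and 159 on the mutant arrays, and *phat-3* gave 246 and 272 on the wild-type arrays and 267 and 309 on the mutant arrays (adjusted p = 0.475 and 0.757 from limma). *idpc-1* gave 170.4 and 217 on the wild-type arrays and 138 and 181 on the mutant arrays (adjusted p = 0.62 from limma). The median log2 ratio of mutant to wild type over the 10 was -0.09 without copper and -0.12 with copper.

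The 3 probe sets that *abu* and *pqn* genes share had no common order of the genotypes. The one for *pqn-2* and *abu-1*, genes on chromosome V, gave 100.3 and 126 on the wild-type arrays and 23.4 and 80.4 on the mutant arrays. Its mutant signals were both below 100 and 1 wild-type signal was at 100.3, so no bound over 1.26-fold can be given in either comparison. The one for *pqn-57* and *abu-9*, on chromosome X, gave 62.3 and 92.8 on the wild-type arrays and 89.6 and 116 on the mutant arrays. The one for *abu-5* and 5 *pqn* genes of chromosome IV gave 51.9 and 105 on the wild-type arrays and 71.5 and 63.7 on the mutant arrays. In this last probe set the copper-treated wild-type array stood above the other 3.

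Among *pqn* genes, 13 of 43 probe sets had both wild-type signals above both mutant signals and 7 had the reverse order, against 16.7% and 18.9% of all tested probe sets. These shares are no test. Among the 13, *pqn-88* and a probe set of *pqn-36* reached 100 on a wild-type array only and so had to be brighter there. More than 1 probe set of *pqn-36* and of *pqn-52* is among the 13. *pqn-31* gave 320.4 and 358 on the wild-type arrays and 221 and 202 on the mutant arrays (log2 difference -0.68 ± 0.15 (SE), adjusted p = 0.199 from limma). *pqn-75* gave 224 and 248 on the wild-type arrays and 169.8 and 120.2 on the mutant arrays (log2 difference -0.72 ± 0.22 (SE), adjusted p = 0.312 from limma). *pqn-75* was the only *pqn* probe set with a ratio under 0.5 between the genotypes, and that with copper. *pqn-74* gave 181 and 214 on the wild-type arrays and 133 and 132 on the mutant arrays. *pqn-24* gave 262 and 196 on the wild-type arrays and 179 and 151 on the mutant arrays. *pqn-94* gave 385 and 445 on the wild-type arrays and 334 and 315 on the mutant arrays. In all 5 genes the wild-type signals were above the mutant signals with no overlap, by log2 differences of -0.35 to -0.72, and adjusted p was between 0.199 and 0.457. In the other direction, *pqn-83* gave 835 and 841 on the wild-type arrays and 1017 and 1017 on the mutant arrays on 1 of its 4 probe sets (log2 difference 0.28 ± 0.11 (SE), adjusted p = 0.446 from limma). The median log2 ratio over the 43 was 0.00 without and -0.04 with copper.

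**Figure D2:**
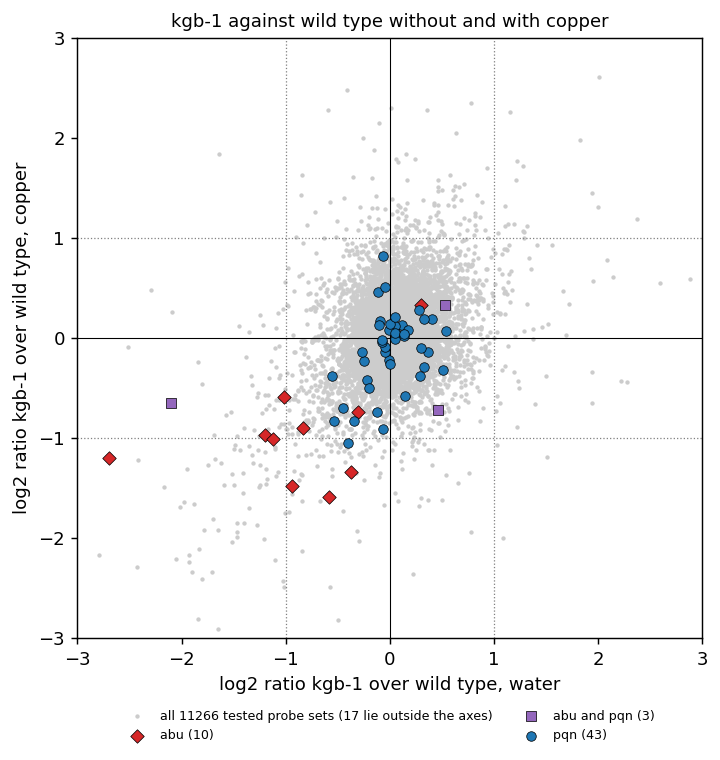
Log2 ratio of *kgb-1* mutant to wild-type signal in water (x axis) and in copper (y axis), with 1 point per probe set, diamonds for *abu*, squares for shared and circles for *pqn* probe sets, and all tested probe sets in grey. The 2 ratios share no array. Of the 10 diamonds, 9 lie below 0 on both axes, as do 3091 of the 11266 tested probe sets. Dotted lines mark a 2-fold difference.

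Several *pqn* genes gave nearly the same signal on all 4 arrays. *pqn-59*, the ortholog of human UBAP2L, a protein of cytoplasmic RNA granules, gave 5331 and 5599 on the wild-type arrays and 5045 and 5457 on the mutant arrays on 1 probe set and 4751 and 5079 on the wild-type arrays and 4769 and 5609 on the mutant arrays on another. *pqn-52* gave 4990.1 and 5178 on the wild-type arrays and 4840.4 and 4692 on the mutant arrays on its brightest probe set. *pqn-70* gave 3934 and 4169 on the wild-type arrays and 4312 and 4231 on the mutant arrays on the brighter of its probe sets. The genotypes overlapped at *pqn-59*, while the wild-type signals were the higher ones at *pqn-52* and the mutant signals at *pqn-70*, by a small margin. *pqn-41*, whose glutamine-rich product takes part in the death of the linker cell of the male, gave 319.6 and 367 on the wild-type arrays and 330.4 and 364 on the mutant arrays. *pqn-52* gave 2756 and 2807 on the wild-type arrays and 2669 and 2629 on the mutant arrays on a second probe set and 457 and 403 on the wild-type arrays and 429 and 453 on the mutant arrays on the dimmest, and *pqn-70* gave 1852 and 1978 on the wild-type arrays and 1758 and 1944 on the mutant arrays on its other one. Within each of these 8 probe sets the highest signal was between 1.07 and 1.18 times the lowest. In 12 of the 56 members, none of the log2 ratios between the conditions was larger than 0.22, the technical spread. The share of all tested probe sets within this spread was not counted. For the 10 members with a mean signal over 1000, all of them *pqn* probe sets, the ratio of mutant to wild type was between 0.946 and 1.23 without copper and between 0.861 and 1.42 with copper. The ratio of copper to water was between 0.796 and 1.40 in wild-type animals and between 0.967 and 1.18 in the mutants.

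**Figure D3:**
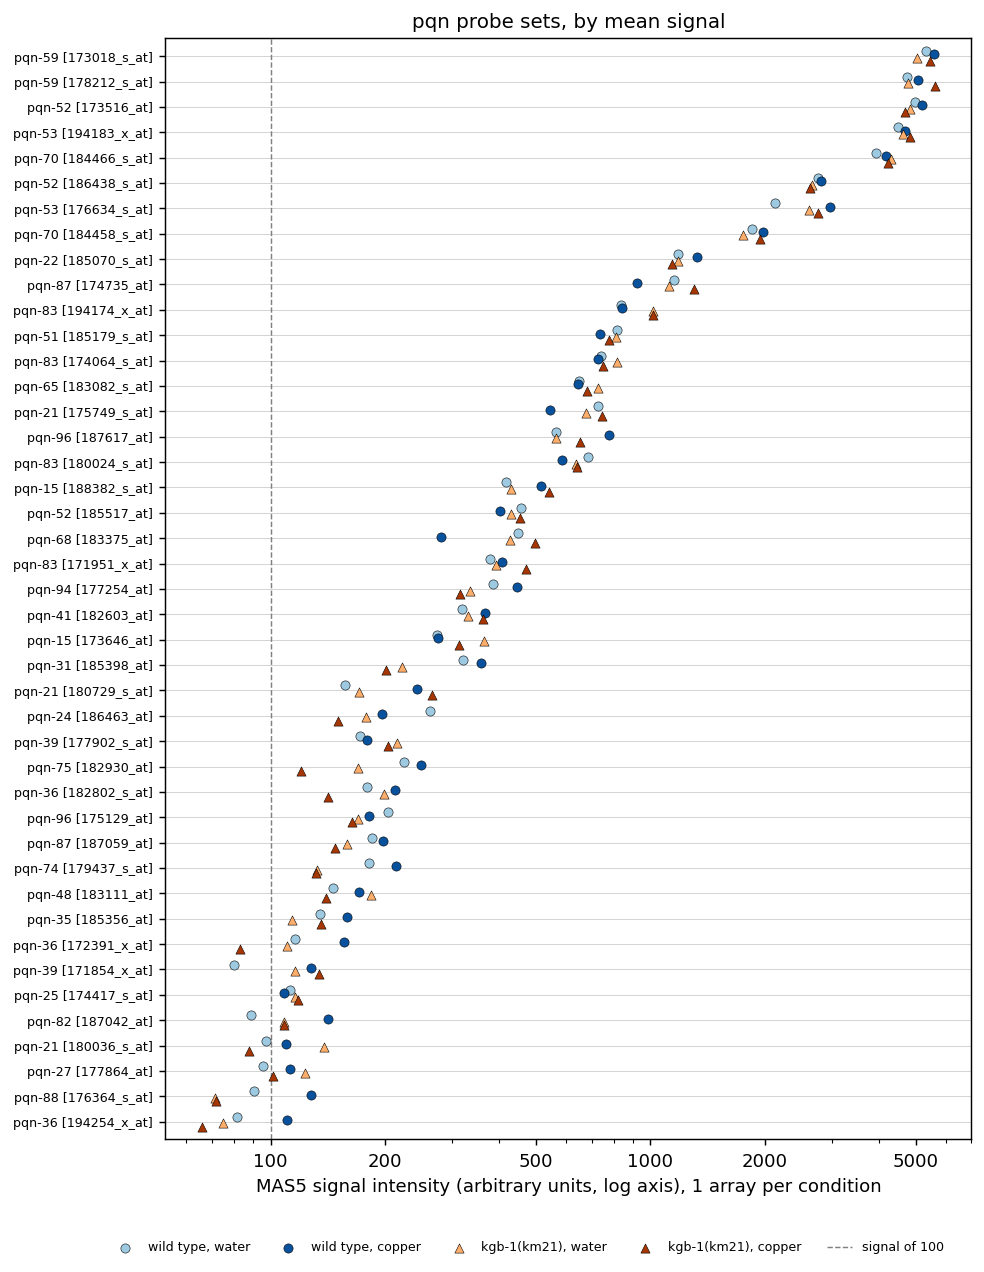
Signal intensity (arbitrary units, log axis) of the 43 *pqn* probe sets, 1 point per array, with circles for wild-type animals and triangles for *kgb-1(km21)* mutants and the darker shade for copper, in the order of their mean signal. The 4 points of *pqn-59*, *pqn-52* and *pqn-70* nearly coincide at the top, while those of *pqn-31* and *pqn-75* part by genotype.

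The response to copper was compared in the same model. No member passed the test for copper in either direction, against 1.18% of all tested probe sets higher and 0.346% lower. At an unadjusted p under 0.05, 3 members were higher and 0 lower, against 6.98% and 5.80% of all tested probe sets. The 3 were *pqn-21*, *pqn-96* and *pqn-15*, each on 1 of its probe sets. *pqn-21* gave 157 and 242 on the wild-type arrays and 171 and 265 on the mutant arrays (log2 change 0.63 ± 0.16 (SE), adjusted p = 0.178 from limma). *pqn-96* gave 565 and 779.7 on the wild-type arrays and 565 and 653 on the mutant arrays (log2 change 0.34 ± 0.13 (SE), adjusted p = 0.349 from limma). *pqn-15* gave 416 and 516 on the wild-type arrays and 429.6 and 541 on the mutant arrays (log2 change 0.32 ± 0.12 (SE), adjusted p = 0.351 from limma). In these probe sets both copper arrays were above both arrays in water. The same order was found at 15 of the 56 members, among them both probe sets of *pqn-59* and *pqn-53*, against 19.2% of all tested probe sets. The reverse order was found at 1 member, *pqn-51*, with 816 and 737 on the wild-type arrays and 813 and 776 on the mutant arrays, against 20.7%.

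The median log2 ratio of copper to water over the 56 was 0.16 in wild-type animals and 0.00 in the mutants, beside 0.01 and -0.01 over all tested probe sets. A ratio over 2 in wild-type animals was found at 1 of the 54 members whose brighter signal was at least 100, against 2.11% of all probe sets. It was the probe set of *abu-5* and 5 *pqn* genes, which reached 105 from 51.9, and it is at least 1.05-fold when 100 is taken for the dimmer signal. With the brighter signal at least 100, which held for 48 members in the mutants, no member had a ratio over 2 in the mutants or under 0.5 in either genotype, against 1.51%, 1.08% and 0.753% of all probe sets. For the *abu* probe sets the medians were 0.18 in wild-type animals and 0.23 in the mutants. With signals below 100 raised to 100, the second was 0.00. Of the 56 log2 ratios, 43 were above 0 in wild-type animals and 29 in the mutants. Of all 11266 tested probe sets, 5821 were above 0 in wild-type animals and 5507 in the mutants. These counts and the median over the 56 are no test of copper. Of the 56 members, 54 reached 100 on the copper-treated wild-type array and 45 or 46 on each of the others. Members such as *abu-10* and *pqn-88* reached it on the copper-treated wild-type array alone, and so had to be brighter there. With signals below 100 raised to 100, the median over the 56 was 0.10 in wild-type animals. The direction was the same in both genotypes at 26 members and opposite at 30. Over all tested probe sets 59.2% had the same direction.

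Some members with large ratios of copper to water in wild-type animals had smaller ones in the mutants, whereas *pqn-21*, on the probe set given above, and *abu-13* did not. The log2 ratio of *pqn-21* was 0.63 in wild-type animals against 0.64 in the mutants, and that of *abu-13* was 0.49 against 0.71. *pqn-82* gave 89.0 and 141 on the wild-type arrays and 109 and 109 on the mutant arrays. *pqn-68* gave 447 and 282 on the wild-type arrays and 428 and 496 on the mutant arrays, with the copper-treated wild-type array apart from the other 3. *pqn-39* gave 80.0 and 128 on the wild-type arrays and 116 and 134 on the mutant arrays on 1 probe set and 171 and 179 on the wild-type arrays and 215 and 204 on the mutant arrays on the other, where the arrays differed little. *pqn-36* gave 179 and 212 on the wild-type arrays and 198 and 142 on the mutant arrays. Its next probe set to reach the signal minimum gave 116 and 156 on the wild-type arrays and 111 and 83.3 on the mutant arrays. Its remaining probe set to reach the minimum gave 81.5 and 111 on the wild-type arrays and 74.7 and 66.0 on the mutant arrays. On these 3 probe sets of *pqn-36* the copper-treated wild-type array was the highest and the copper-treated mutant array the lowest. A probe set of *pqn-36* below the minimum gave 50.6 and 85.1 on the wild-type arrays and 34.0 and 46.5 on the mutant arrays. Another below it gave 42.6 and 58.6 on the wild-type arrays and 28.1 and 28.8 on the mutant arrays. On both, the copper-treated wild-type array was again the highest, but the mutant array in water was the lowest. *pqn-27* gave 95.5 and 112 on the wild-type arrays and 123 and 102 on the mutant arrays and *pqn-48* gave 146 and 171 on the wild-type arrays and 183 and 139 on the mutant arrays, with the highest signal in both in mutants without copper. *pqn-82*, *pqn-68* and the first probe set of *pqn-39* were named for their large ratios in wild-type animals, a choice that itself favors smaller ratios in the mutants. No test of a different copper response in the 2 genotypes is possible with 1 array per condition.

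**Figure D4:**
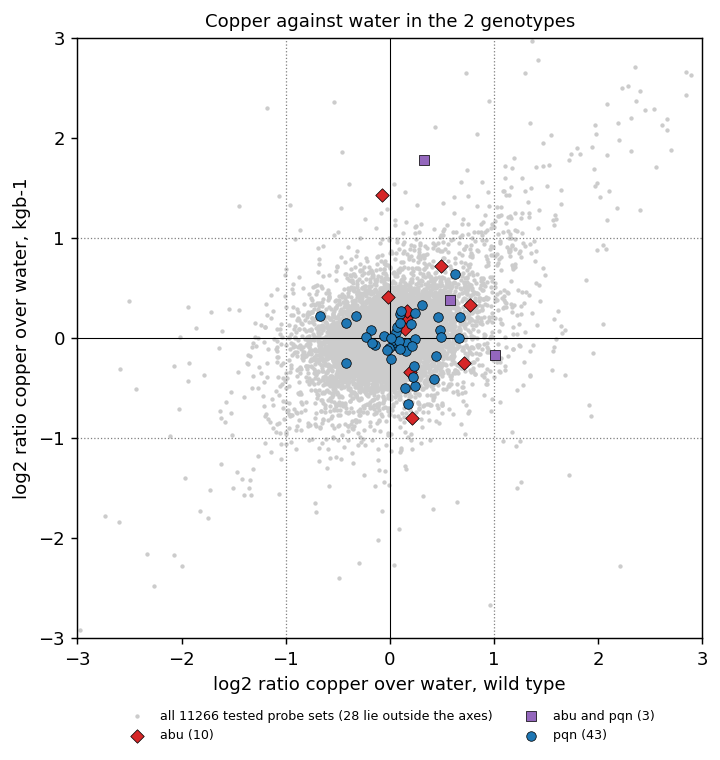
Log2 ratio of copper to water in wild-type animals (x axis) and in *kgb-1* mutants (y axis), with 1 point per probe set, diamonds for *abu*, squares for shared and circles for *pqn* probe sets, and all tested probe sets in grey. The 2 ratios share no array. Of the 56, 30 have opposite signs in the genotypes. The 2 points above the upper dotted line of a 2-fold difference on the y axis, *abu-8* and the probe set of *pqn-2* and *abu-1*, have both mutant signals below 100.

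For 13 of the genes more than 1 probe set reached 100, and they did not always behave alike. *pqn-21* gave 729 and 544 on the wild-type arrays and 675 and 747 on the mutant arrays on its brightest probe set, where the copper-treated wild-type array was the lowest, unlike on the probe set above. A further one gave 97.3 and 109.5 on the wild-type arrays and 138 and 87.9 on the mutant arrays. *pqn-87* gave 1156 and 919.8 on the wild-type arrays and 1118 and 1304 on the mutant arrays on 1 probe set and 185 and 197 on the wild-type arrays and 159 and 147 on the mutant arrays on the other. With copper, the mutant signal was therefore above the wild-type signal on the first and below it on the second. *pqn-53* gave 2127 and 2971 on the wild-type arrays and 2624 and 2766 on the mutant arrays on 1 probe set and 4487 and 4676 on the wild-type arrays and 4631 and 4836 on the mutant arrays on the other, so the low signal in wild-type animals in water on the first was not seen on the second. *pqn-96* gave 204 and 181 on the wild-type arrays and 169.8 and 164 on the mutant arrays on its other probe set, where copper-treated animals were not above those in water. *pqn-15* gave 274 and 276 on the wild-type arrays and 364 and 314 on the mutant arrays on its other probe set. *pqn-83*, with 4 probe sets, gave 378 and 407 on the wild-type arrays and 391 and 471 on the mutant arrays on the dimmest, 741 and 727 on the wild-type arrays and 817 and 748 on the mutant arrays on the second brightest, and 684 and 585 on the wild-type arrays and 638 and 641 on the mutant arrays on the remaining one. Together with the probe set given above, they had log2 ratios of mutant to wild type from -0.10 to 0.29 without copper and from 0.04 to 0.27 with copper. The 2 probe sets of *abu-14* had the same order of genotypes, and differed in how copper-treated wild-type animals compared with those in water, with ratios of 1.11 and 1.64.

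Genes of the pathways from which the *abu* genes take their name were set beside them. Of 28 probe sets for the unfolded protein response of the ER, none passed for copper or genotype. *crt-1*, the gene for the calcium-binding chaperone calreticulin, gave 16101 and 20109 on the wild-type arrays and 15121 and 17252 on the mutant arrays. *hsp-4*, a gene for the ER chaperone BiP and the usual reporter of that response, gave 2611 and 2956 on the wild-type arrays and 2731 and 3134 on the mutant arrays. *xbp-1*, the gene for its transcription factor, gave 1901 and 2500.0 on the wild-type arrays and 2029.7 and 2361 on the mutant arrays on the brighter of its probe sets. In all 3 the copper signal was above that in water in both genotypes. Others of the list went the other way, such as *enpl-1*, with 1182 and 1058 on the wild-type arrays and 1240 and 1044 on the mutant arrays on 1 probe set. The median log2 ratio of copper to water over the 28 was 0.09 in wild-type animals and 0.04 in the mutants. Adjusted p for copper from limma was 0.178 for *crt-1*, 0.466 for *hsp-4* and 0.298 for *xbp-1*. The disulfide isomerase genes *pdi-1* and *pdi-6* gave 9223 and 8526 on the wild-type arrays and 8626 and 7078 on the mutant arrays, and 7747 and 8231 on the wild-type arrays and 7766 and 7841 on the mutant arrays (adjusted p = 0.384 and 0.826 for copper from limma). Of 16 probe sets for the engulfment of dying cells through CED-1, none passed for either factor. *ced-1*, the gene for the receptor, gave 439.8 and 191 on the wild-type arrays and 328 and 352 on the mutant arrays on 1 probe set, with the copper-treated wild-type array below the other 3, and 298 and 240.0 on the wild-type arrays and 255 and 219 on the mutant arrays on another, where the copper-treated mutant array was the lowest. Adjusted p from limma on the first was 0.51 (copper) and 0.827 (genotype). *ced-2*, an adaptor gene of the engulfing cell, gave 4601 and 2979 on the wild-type arrays and 4415 and 4155 on the mutant arrays on the brighter of its probe sets (adjusted p = 0.364 for copper from limma). The median log2 ratio of mutant to wild type was 0.04 without and -0.04 with copper for the first list and 0.00 and -0.09 for the second.

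Marker genes of other tissues were read in the same way, and none of the lists had a probe set that passed for genotype or copper. The median log2 ratios of mutant to wild type, without and with copper, were for the intestine (8 probe sets) -0.09 and -0.09, for the epidermis (6 probe sets) 0.06 and 0.21 and for body wall muscle (6 probe sets) -0.08 and -0.15. They were for the germline (8 probe sets) -0.02 and -0.01, for neurons (7 probe sets) 0.17 and 0.41 and for embryos (2 probe sets) 0.22 and -0.14. They were -0.45 and -0.41 for the 3 sperm markers, and 0.20 and -0.02 for pharynx muscle. Of the 7 neuron probe sets, 4 had both mutant signals above both wild-type signals, against 18.9% of all tested probe sets.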

How the data were processed

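Whole-animal RNA of 4 samples, 1 array per condition, was measured on Affymetrix *C. elegans* GeneChips, processed once by a service company. The authors deposited MAS5 signal intensities, linear and scaled so that the mean without the highest and lowest 2% of probe sets is 500.1 on each array. The MAS5 version and a genome build are not given in the sources used here. Detection calls were not used here.

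Probe sets were named by the platform's gene table, matched by Entrez identifier to RefSeq genes of WBcel235 (45 of 45 member genes), used for names, chromosomes and gene order only. A ratio counted as 2-fold if it exceeded 2 or fell short of 0.5, given 100 or more in the brighter condition, and a dimmer signal below 100 gave a lower bound against 100. Log2 signals of the 11266 probe sets with at least 100 on any array were fitted in limma 3.58.1 (R 4.3.3) with copper and genotype as factors and a trend of variance on mean, and p-values were adjusted over all of them by Benjamini-Hochberg (threshold 0.05). The residual has 1 degree of freedom and the prior adds 5.19. For copper it measures how far the genotypes differ in response, so a response of 1 genotype alone tends to fail, and for genotype how far the treatments differ. The labels call each sample a biological replicate numbered 1, and p-values rest on the 4 arrays alone. The number of arrays limits the precision. The fit was tested on simulated data. Counts and plots used Python 3.11.15, pandas 2.3.3, numpy 2.4.6 and matplotlib 3.10.9.

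The members and the lists were chosen with earlier results of these data known. The 4 signals were given for every *abu* and shared probe set, the 5 largest rises and falls among members in each comparison, the 5 brightest, and genes with several probe sets, and for the lists their brightest members; members with an unadjusted p under 0.05, *pqn-41*, *pqn-51*, *ugt-51*, *hsp-4*, *xbp-1*, *ced-1*, *bli-2* and the genes of the last section were named after their values were seen. A grouping by protein composition was planned, and protein sequences were not used here. The lists were the unfolded protein response, CED-1 engulfment, pharyngeal cuticle and gland, molting, and markers of pharynx muscle, intestine, epidermis, body muscle, germline, sperm, neurons and embryo. Alternatives were quantile normalization, scaling to equal medians, signals below 100 raised to 100, an offset of 32, signal minima of 50, 200 or none, probe sets without a suffix, no second factor, no trend, and each array left out with only the tested factor in the model.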

Additional observations from a re-analysis of the deposited data

Results flagged for a closer look

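The copper response of a few members went one way in wild-type animals and the other way in *kgb-1* mutants, by more than the technical spread of 0.22 in both. This held for 6 probe sets. The share of all tested probe sets that meet the same rule was not counted. At *pqn-27* the SE of the copper change in limma was 0.27, above that spread. The difference between the genotypes was not tested, since each rests on 1 array per condition. The log2 ratio of copper to water in wild-type animals, minus that in the mutants, was 0.97 for the second probe set of *abu-14* (0.71 and -0.25), and the first probe set of this gene did not show it. It was 0.84 and 0.73 for 2 probe sets of *pqn-36* (0.43 and -0.41, and 0.24 and -0.48). It was 0.62 for *pqn-48* (0.23 and -0.39), 0.51 for *pqn-27* (0.23 and -0.28) and -0.55 for 1 probe set of *pqn-87* (-0.33 and 0.22).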

How the results depend on the processing

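No paired analysis was possible because every condition has 1 array, so the groups share only the number 1. The counts of 0 members called for copper, higher or lower, and for genotype, higher in the mutants, were 0 under all alternatives, those with 1 array left out included. For genotype, lower in the mutants, the count was 2 (*abu-14* and *abu-15*) with arrays scaled to equal medians, where 112 of 11266 tested probe sets were called against 32 in the model as reported, and 0 under the others, 0 to 0 with 1 array left out. That scaling moved the median log2 ratio of copper to water of all tested probe sets in wild-type animals from 0.01 to -0.12. Of the log2 changes of members with an unadjusted p under 0.05, none changed sign. Medians over all members moved by less than the technical spread. Medians and order of the *abu* probe sets were examined under the alternatives after the data were seen. With signals below 100 raised to 100, the *abu* median was 0.00 for copper in the mutants, and -0.58 and -0.75 between genotypes without and with copper. With no minimum it was -0.58 without copper. On the 3 *abu* probe sets without a suffix it was 0.71 for copper in wild-type animals and -0.37 between genotypes without copper. The 8 *abu* probe sets with both wild-type signals above both mutant signals became 3 of 3 with a minimum of 200 and 2 of 3 without a suffix.

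The count of members more than 2-fold higher with copper in wild-type animals, 1, became 0 with quantile normalization, equal medians, raised signals, the offset of 32, the minimum of 200 or no suffix, 3 with a minimum of 50 and 6 with none. The counts lower in the mutants, 5 without and 6 with copper, became 1 and 3 with raised signals, 2 and 3 with the offset, 1 and 3 with the minimum of 200, and 0 and 2 without a suffix. The count with copper was 10 with the minimum of 50. With no minimum they were 13 and 11. The counts of 0 became, with the minimum of 50, 1 lower with copper in wild-type animals, 2 higher and 1 lower with copper in the mutants, and 2 higher in the mutants without copper. With no minimum these were 7, 9, 5 and 5, and 3 were higher in the mutants with copper. Of all probe sets, with no minimum, 12.6% were more than 2-fold higher and 8.62% lower with copper in wild-type animals, 9.78% and 9.25% in the mutants, and 9.69% were higher and 8.79% lower in the mutants without copper, 8.96% and 11.2% with it. Of the 102 probe sets of the family that enter there, 46 have no signal of 100. With the minimum of 50, 4.41% of all probe sets were more than 2-fold higher and 1.94% lower with copper in wild-type animals. In the mutants these shares were 2.68% and 1.88%. At that minimum 1.81% were higher and 1.89% lower in the mutants without copper, and 2.51% and 3.67% with it. With the minimum of 200, 0.553% and 0.877% were lower in the mutants without and with copper. The alternatives with a minimum of 200 and without a suffix hold fewer members, 35 and 20. Dim signals limit the *abu* values, as 3 of the 10 probe sets reached 100 on all 4 arrays.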

Other observations

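The 46 probe sets of the family that stayed below 100 on all arrays (7 *abu*, 38 *pqn* and 1 shared set) enter no count. Both wild-type signals were above both mutant signals at 15, both mutant signals were above both wild-type signals at 5, and the genotypes overlapped at 26. The share of all probe sets below 100 with either order was not counted, so nothing is read from these counts. *abu-11* gave 66.6 and 99.3 on the wild-type arrays and 75.7 and 45.5 on the mutant arrays, with the copper-treated arrays farthest apart and the genotypes overlapping. *pqn-16* gave 47.4 and 39.0 on the wild-type arrays and 10.5 and 9.58 on the mutant arrays, *pqn-54* 56.0 and 80.9 on the wild-type arrays and 32.9 and 24.7 on the mutant arrays, and *pqn-13* 41.7 and 77.5 on the wild-type arrays and 6.29 and 21.3 on the mutant arrays on 1 probe set and 78.0 and 68.4 on the wild-type arrays and 44.3 and 77.8 on the mutant arrays on another, so that its probe sets did not show the same order. *pqn-72* had the reverse order on 1 of its probe sets, with 37.3 and 41.3 on the wild-type arrays and 77.8 and 68.1 on the mutant arrays. These 5 genes were chosen after their values were seen.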
